A study of Mus musculus with 4 samples.

Results

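The nuclear genes of the mitochondrial respiratory chain and ATP synthase were examined in splenic Treg cells with and without Setd2. They were chosen by symbol alone (Nduf, Sdha to Sdhd, Uqcr, Cox and a digit, and Atp5), which gave 105 of the 24087 genes in the table. By the same symbols 48 belonged to complex I, 4 to complex II, 8 to complex III, 27 to complex IV (cytochrome c oxidase) and 18 to complex V (ATP synthase). The rule used no measured value. By name 87 are subunits, isoforms of muscle, heart, lung or testis among them, 17 are assembly factors and 1, Atp5c1-ps, is a pseudogene. Ndufb4c, counted by its symbol with the subunits, is annotated as a processed pseudogene too.

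The respiratory chain passes electrons from NADH (complex I) and succinate (complex II) through ubiquinone, complex III and cytochrome c to oxygen at complex IV. Complexes I, III and IV pump protons out of the mitochondrial matrix, and ATP synthase lets them back through its Fo part to make ATP in its F1 part. Most subunits are encoded in the nucleus, and a small core of the subunits of complexes I, III, IV and V is encoded by mitochondrial DNA (mtDNA), so the complexes are built from the products of both genomes. Treg cells are known to rely on oxidative phosphorylation more than effector T cells do.

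Treg cells were sorted as CD3+CD4+YFP+ from the spleen of C57BL/6 mice at steady state. KO cells came from Foxp3Cre-YFPSetd2f/f mice and CTRL cells from Foxp3Cre-YFPSetd2f/+ littermates. Both genotypes carry Cre and YFP from the Foxp3 locus, so that recombination takes place in Foxp3-expressing cells, and CTRL mice carry 1 floxed allele of Setd2 themselves. Each genotype had 2 libraries (CTRL 1, CTRL 2, KO 1 and KO 2), each from about 1000000 cells pooled from 2 mice, and the ages of these mice were not given in the labels. The methods of the study give in vivo mice as age-matched and between 6 and 12 weeks old unless specified. Setd2 encodes the methyltransferase that places H3K36me3, and the comparison asks how the transcriptome of Treg cells differs without it.

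The values were FPKM (fragments scaled to the length of the gene and to the total of the library), a level per gene length that can be set side by side between genes. Fragment totals recovered from the FPKM ran from 32803683 in CTRL 1 to 35460567 in KO 2. CTRL 1 had 19100 genes above 0, and the other libraries had 15913 to 16410. Setd2 itself was at 23.4 and 25.3 FPKM in CTRL against 21.3 and 19.5 in KO, which is a log2 change of -0.24 (standard error 0.076, adjusted p = 0.0970) over the whole gene, floxed exons included. Markers of Treg cells summed to 1454 to 1627 FPKM and those of T cells to 1489 to 1672 FPKM, whereas those of CD8 T cells summed to 8.49 to 11.4 FPKM. The 6 B cell markers summed to 915 and 656 FPKM in CTRL against 1270 and 1180 in KO, mostly from Ighm. Myeloid markers summed to 173 and 103 FPKM in CTRL against 239 and 84.4 in KO, and erythroid markers to 12.4, 2.21, 20.0 and 5.02 FPKM in the same order. The proliferation marker Mki67 rose from 31.8 and 24.3 FPKM to 45.1 and 44.7 FPKM (log2 change of 0.67, standard error 0.13, adjusted p = 0.0433). The part of Ighm, of other cells and of proliferation in the results below was not tested.

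Among the respiratory chain and ATP synthase genes, more rose than fell in KO, and the changes were small. Of the 95 genes that passed the filter on low values (at least 1 FPKM in 2 or more libraries), 10 were higher in KO at adjusted p under 0.05 (limma, adjusted over all 11399 genes tested), 2 were lower and 83 did not pass. That is 10.5% higher, where 5.10% of all genes tested were higher, and 2.11% lower, where 4.65% of all genes tested were lower. The median log2 fold change was 0.122 over the 95 genes and -0.022 over all genes tested, and the 95 fold changes lay between -0.59 and 0.43. KO libraries lay wholly above CTRL libraries for 50 of the 95 genes (52.6%, against 29.0% of all genes tested) and wholly below them for 14 (14.7%, against 35.5%). The genotypes overlapped for the other 31. At unadjusted p under 0.05 (limma), 28 of the 95 were higher and 6 lower, against 1855 and 2099 of all 11399 genes tested. Later counts at that cut are to be read beside these. The 10 genes under the filter were Atp5c1-ps, Cox4i2, Cox6b2, Cox7a2, Cox7b2, Cox8b, Cox8c, Ndufa4l2, Sdhd and Uqcr11, all under 1 FPKM in every library. A fold change here is a difference on the log2(FPKM + 1) scale, which understates the change of weakly expressed genes.

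**Figure D1:**
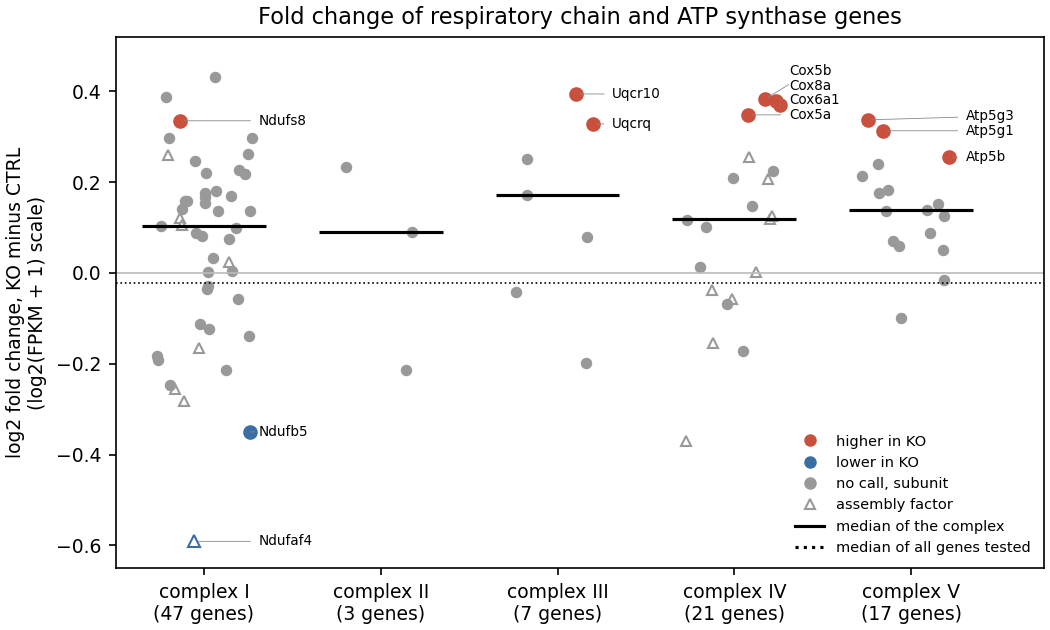
Log2 fold change of the 95 genes tested, KO minus CTRL on the log2(FPKM + 1) scale, by complex, with circles for subunits and open triangles for assembly factors. Red marks the 10 genes higher and blue the 2 lower in KO, and the medians of the complexes (0.090 to 0.172) lie above that of all genes tested (-0.022, dotted).

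Summed over all 105 genes, the level reached 7434 and 7361 FPKM in the CTRL libraries against 7987 and 8359 FPKM in the KO libraries, so the KO mean was 10.5% above the CTRL mean. The same sum over all genes tested differed by 0.997%. In bulk RNA, more cells with a high content of these transcripts and more of them per cell cannot be told apart. The direction was also common among other abundant genes. Of the 1589 genes at a mean of 50 FPKM or more, 11.7% were higher in KO, with a median log2 fold change of 0.081 and both KO libraries above both CTRL libraries for 47.4%. For the 54 respiratory chain and ATP synthase genes at that level, these values were 16.7% (9 genes), 0.142 and 63.0%. Lower in KO were 3.15% of the 1589 and 0 of the 54, and KO libraries lay wholly below CTRL libraries for 22.3% and 11.1%. The genes are also short, with a median length, as recovered from the FPKM, of 681 bases against 2604 bases for all genes tested. Among all 1460 genes under 1000 bases 7.47% were higher, with a median of 0.035, and among the 62 respiratory chain and ATP synthase genes under 1000 bases 14.5% (9 genes) were higher, with a median of 0.137.

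All 10 higher genes were subunits. Of 78 subunits tested, 10 were higher (12.8%) and 1 was lower (1.28%), with a median log2 fold change of 0.137. None of the 17 assembly factors was higher and 1 was lower (5.88%, limma), with a median of 0.001. Of all genes tested, 5.10% were higher and 4.65% lower, and at such shares few calls fall among 17 genes. At unadjusted p under 0.05 (limma), 2 assembly factors were higher and 2 lower, against 1855 and 2099 of all 11399 genes tested. KO libraries lay wholly above CTRL libraries for 45 subunits (57.7%) and 5 assembly factors (29.4%), and wholly below for 9 subunits (11.5%) and 5 assembly factors (29.4%). For all genes tested these shares were 29.0% above and 35.5% below. The difference between the 2 kinds of gene was not tested. Assembly factors were also expressed at lower levels, with a median of 9.56 FPKM against 74.6 FPKM for subunits.

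**Figure D2:**
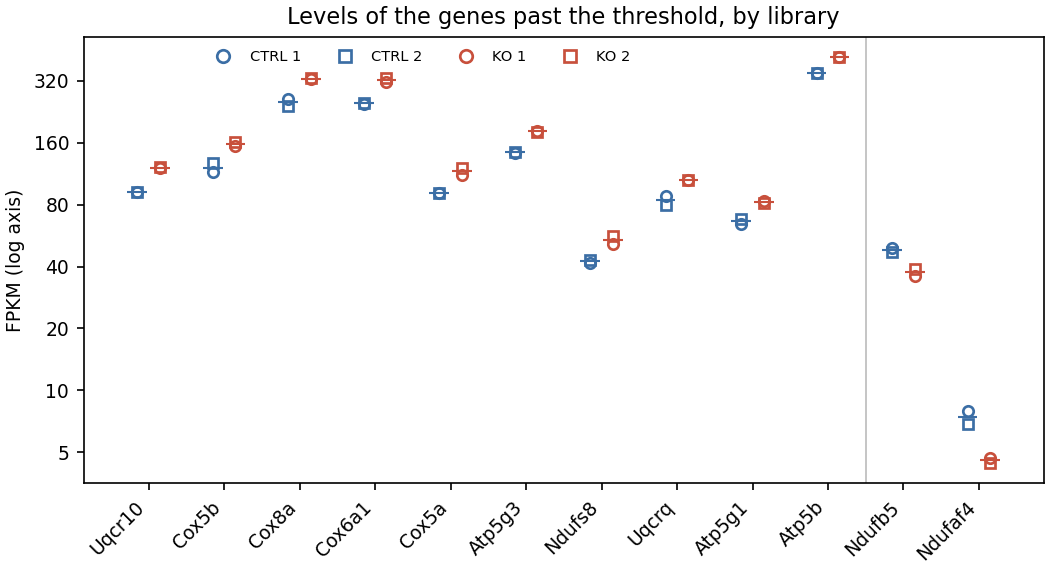
FPKM of the 12 genes past the threshold in each library (log axis), with circles for replicate 1, squares for replicate 2 and a line at the mean of the 2 libraries. In all 12 genes the KO libraries lie wholly above or wholly below the CTRL libraries, and replicates of a genotype lie close together. The test by which these genes were chosen favours both.

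Complex I takes electrons from NADH and is the largest of the complexes. Of its 47 genes tested, 1 was higher in KO, 2 were lower and 44 did not pass, with a median log2 fold change of 0.104. That is 2.13% higher and 4.26% lower, against 5.10% and 4.65% of all genes tested. KO libraries lay wholly above CTRL libraries for 20 (42.6%, against 29.0% of all genes tested) and wholly below for 8 (17.0%, against 35.5%). The 7 nuclear core subunits, which hold the flavin and the iron-sulfur clusters, had a median of -0.036, and the 32 other subunits tested had a median of 0.139.

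Ndufs8 (chr19:3908863-3912774, GRCm38), a core subunit that carries iron-sulfur clusters, was at 41.8 and 43.1 FPKM in CTRL against 51.6 and 56.0 in KO. It was the 1 core subunit that rose, by 0.34 on the log2 scale (standard error 0.065, adjusted p = 0.0434). Its 6 fellow core subunits did not pass, with fold changes from -0.19 for Ndufs1 to 0.15 for Ndufv2. Ndufs1, the largest subunit of the complex, was at 24.0 and 20.6 FPKM in CTRL against 18.8 and 19.9 in KO. Core subunits of the same arm of the enzyme therefore lay on both sides of 0.

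Ndufb5 (chr3:32736990-32751566), an accessory subunit of the membrane arm, was at 49.1 and 47.1 FPKM in CTRL against 36.1 and 39.0 in KO. Both KO libraries were below both CTRL libraries, and it fell by 0.35 on the log2 scale (standard error 0.065, adjusted p = 0.0422). Its neighbour Mrpl47 overlaps 12.3% of its exons on the other strand, and the use of strand in counting was not stated. Other subunits of the same arm pointed either way without passing. Ndufb3 lay lower as well, at 57.0 and 56.2 FPKM in CTRL against 46.1 and 51.4 in KO (log2 change of -0.21, limma adjusted p = 0.105). Ndufb7 and Ndufc1 lay higher. Ndufb7 was at 88.1 and 95.5 FPKM in CTRL against 113 and 128 in KO (log2 change of 0.39, adjusted p = 0.0516). Ndufc1 was at 23.5 and 27.5 FPKM in CTRL against 32.1 and 37.5 in KO, and had the highest fold change of all 95 genes (0.43, 95% interval 0.15 to 0.72, adjusted p = 0.0683). Both stood just outside the threshold, and Uqcrq, at 0.0464, and Atp5b, at 0.0462, just inside it.

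Among the most abundant subunits of complex I, Ndufa4 was at 157 and 145 FPKM in CTRL against 175 and 184 in KO (log2 change of 0.25, adjusted p = 0.0730). The protein was first placed in complex I and is known to associate with complex IV. Its relative Ndufa4l2, known for its induction by hypoxia, was at 0 in 3 libraries and at 0.0883 FPKM in KO 1. Ndufa3 was at 133 and 115 FPKM in CTRL against 129 and 135 in KO, so the genotypes overlapped (log2 change of 0.10, adjusted p = 0.445). Ndufb4 overlapped as well, at 65.7 and 66.1 FPKM in CTRL against 60.9 and 71.6 in KO. Ndufb4b was listed under the same identifier as Ndufb4 and Ndufb4c shares 100% of its 100-base stretches with it, so their values, of 0.444 to 3.05 FPKM, are uncertain.

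Assembly factors of complex I, which help to put the enzyme together without staying in it, had a median of -0.070 over 8 genes. Ndufaf4 (chr4:24898083-24905001), which acts on the assembly of the peripheral arm, was at 7.96 and 6.82 FPKM in CTRL against 4.69 and 4.43 in KO. Its mean went from 7.39 ± 0.804 FPKM (SD, n = 2) to 4.56 ± 0.184 FPKM (SD, n = 2), the lowest fold change of the 95 genes (-0.59, standard error 0.10, adjusted p = 0.0395). The remaining 7 did not pass and lay between -0.28 for Ndufaf1 and 0.26 for Ndufaf3. Ndufaf4 thus fell while the median subunit of the complex lay at 0.137.

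Complex II, succinate dehydrogenase, links the respiratory chain with the TCA cycle and has no subunit from mtDNA. Of its 4 genes 3 were tested and none passed, by limma, with 0 higher and 1 lower at unadjusted p under 0.05. Sdha, the flavoprotein that oxidises succinate, was at 67.7 FPKM in both CTRL libraries and at 56.2 and 60.4 FPKM in KO (log2 change of -0.21, 95% interval -0.37 to -0.06, adjusted p = 0.0795). Sdhb, the iron-sulfur subunit, was at 77.2 and 76.5 FPKM in CTRL against 83.1 and 98.7 in KO (log2 change of 0.23, adjusted p = 0.146). Sdhc, a membrane anchor, was at 53.8 FPKM in both CTRL libraries and at 58.1 and 56.6 FPKM in KO (log2 change of 0.09, adjusted p = 0.279). In none of the 3 did the genotypes overlap. Of all genes tested, KO libraries lay wholly above CTRL libraries for 29.0% and wholly below for 35.5%, so this is common. The ratio of Sdhb to Sdha was accordingly 1.14 and 1.13 in CTRL and 1.48 and 1.63 in KO. The other anchor, Sdhd, was listed at 0 to 0.0674 FPKM in all libraries, although the enzyme needs it, so this listing cannot be read as its level.

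Complex III passes electrons from ubiquinol to cytochrome c. Of its 7 genes tested, 2 were higher (28.6%, against 5.10% of all genes tested) and none was lower (against 4.65%). KO libraries lay wholly above CTRL libraries for 5 (71.4%, against 29.0%) and wholly below for 1 (14.3%, against 35.5%). All 7 were at a mean of 50 FPKM or more. Of all genes tested at that level, 11.7% were higher and 3.15% lower, with KO libraries wholly above for 47.4% and wholly below for 22.3%. The median log2 fold change of the 7 was 0.172, against 0.081 for all genes tested at that level. At unadjusted p under 0.05 (limma), 4 of the 7 were higher and 0 lower, against 1855 and 2099 of all 11399 genes tested.

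Uqcr10 (chr11:4701973-4704342), a small subunit of complex III, had the lowest adjusted p of the 105 genes. It was at 91.9 and 92.0 FPKM in CTRL against 121 and 122 in KO, a log2 fold change of 0.39 (standard error 0.049, 95% interval 0.27 to 0.52, adjusted p = 0.0346). Its replicates differed far less than its genotypes did. Uqcrq (chr11:53427922-53430831), the ubiquinone-binding small subunit, was at 88.1 and 80.0 FPKM in CTRL and 106 FPKM in both KO libraries (log2 change of 0.33, adjusted p = 0.0464). The 2 core proteins, Uqcrc1 and Uqcrc2, had fold changes of 0.25 (adjusted p = 0.0520) and 0.08 (adjusted p = 0.313).

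Uqcrh and Uqcrb lay below 0 and did not pass. Uqcrh, the acidic hinge subunit near cytochrome c and the most abundant transcript of the complex, was at 178 and 186 FPKM in CTRL against 173 and 179 in KO (log2 change of -0.04, adjusted p = 0.620). Uqcrb was at 111 and 99.2 FPKM in CTRL against 86.7 and 96.2 in KO (log2 change of -0.20, adjusted p = 0.171). The ratio of Uqcr10 to Uqcrh was accordingly 0.517 and 0.496 in CTRL and 0.696 and 0.679 in KO. Uqcr11, another subunit, was listed at 0 in all 4 libraries, which cannot be read as its level. Cyc1, the cytochrome c1 of complex III, which the symbol rule leaves out, was at 53.6 and 57.1 FPKM in CTRL against 61.6 and 58.4 in KO (log2 change of 0.11, adjusted p = 0.255).

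Complex IV reduces oxygen, with a catalytic core from mtDNA and a coat of nuclear subunits. Of its 21 genes tested, 4 were higher in KO (19.0%, against 5.10% of all genes tested) and none was lower (against 4.65%). The median log2 fold change was 0.119. All 4 higher genes were among the 12 subunits tested, whose median was 0.177. The summed level of the subunits rose from 1848 and 1838 FPKM in CTRL to 2102 and 2161 FPKM in KO (15.7%). The 9 assembly factors had a median of 0.001 and none passed, with 1 higher and 1 lower at unadjusted p under 0.05.

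Cox5a and Cox5b, which contact the catalytic core, rose together. Cox5a (chr9:57521274-57532426) was at 90.8 and 91.1 FPKM in CTRL against 112 and 120 in KO (log2 change of 0.35, standard error 0.057, adjusted p = 0.0379). Gm26631 overlaps 12.8% of the exons of Cox5a on the other strand. Cox5b (chr1:36691449-36693681), which binds zinc, was at 115 and 127 FPKM in CTRL against 154 and 161 in KO (log2 change of 0.38, standard error 0.071, adjusted p = 0.0423). In each the KO libraries lay wholly above the CTRL libraries.

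Cox8a and Cox6a1 are the ubiquitous isoforms of their subunits. Cox8a (chr19:7215153-7217616) was at 262 and 242 FPKM in CTRL against 326 and 330 in KO (log2 change of 0.38, standard error 0.062, adjusted p = 0.0379). Cox6a1 (chr5:115345642-115348981) was at 247 and 251 FPKM in CTRL against 315 and 329 in KO (log2 change of 0.37, standard error 0.054, adjusted p = 0.0351). Their mean levels were 30.0% and 29.4% higher in KO.

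Other abundant subunits of the same enzyme did not pass. Cox7a2l, known for a part in joining complexes III and IV into supercomplexes, was at 220 and 225 FPKM in CTRL against 194 and 201 in KO (log2 change of -0.17, adjusted p = 0.0944). Cox6a1 and Cox7a2l accordingly stood in a ratio of 1.12 in both CTRL libraries and 1.63 and 1.64 in KO. Cox4i1, the largest nuclear subunit, was at 278 and 269 FPKM in CTRL against 290 and 296 in KO (log2 change of 0.10, adjusted p = 0.238), and turned to -0.04 under quantile normalization. Cox6b1 was at 163 and 170 FPKM in CTRL against 190 and 194 in KO (log2 change of 0.21, adjusted p = 0.0679), and Cox7b had a fold change of 0.12 (adjusted p = 0.206).

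Isoforms of other tissues stayed at trace levels. Cox4i2, the lung isoform, made up at most 0.147% of the Cox4i transcripts, Cox6a2, the heart and muscle isoform, at most 0.466% of Cox6a, and Cox6b2, the testis isoform, at most 0.494% of Cox6b. Cox7a1, the muscle isoform, was at 1.42 and 2.29 FPKM in CTRL against 1.47 and 1.93 in KO. Cox8b was above 0 in KO 2 alone, at 0.233 FPKM, and Cox8c and Cox7b2 were listed at 0 in all libraries. Cox7a2, the ubiquitous form of its subunit, was listed at 0.115 to 0.411 FPKM and was not tested. As for Sdhd, this listing cannot be read as its level, so no isoform share of the Cox7a genes is given.

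Of the assembly factors of complex IV, Cox16 was at 14.3 and 12.1 FPKM in CTRL against 9.91 and 10.1 in KO (log2 change of -0.37, adjusted p = 0.0685), but 56.8% of its exons lie under another annotated gene. Cox20, at 103 to 125 FPKM, shares 91.1% of its exons with Hnrnpu on the opposite strand. Their levels are therefore uncertain. Cox17, a copper chaperone, was at 39.6 and 40.5 FPKM in CTRL against 43.7 and 52.8 in KO (log2 change of 0.26, adjusted p = 0.143).

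ATP synthase genes lay mostly on 1 side, with 15 of the 17 tested above 0 (88.2%, against 46.2% of all genes tested). All 17 were at a mean of 50 FPKM or more, and of all genes at that level 64.3% lay above 0. At that level 11.7% of genes were higher and 3.15% lower, with KO libraries wholly above CTRL libraries for 47.4% and wholly below for 22.3%. Of the 17, 3 were higher in KO (17.6%, against 5.10% of all genes tested) and none was lower (against 4.65%). KO libraries lay wholly below CTRL libraries for none (against 35.5%). They lay wholly above for 11 (64.7%, against 29.0%), among them all 5 subunits of the F1 part that makes ATP. The median log2 fold change was 0.138, and the summed level was 2506 and 2507 FPKM in CTRL against 2714 and 2834 in KO. Of the 11, Atp5o has 47.9% of its exons under other annotated genes, so its level is less certain.

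Atp5b (chr10:128083273-128090391), the catalytic beta subunit and the most abundant of all 105 transcripts, was at 349 and 351 FPKM in CTRL against 417 and 418 in KO. The CTRL mean of 350 ± 1.18 FPKM (SD, n = 2) compares with a KO mean of 418 ± 0.324 FPKM (SD, n = 2), a log2 fold change of 0.26 (standard error 0.051, adjusted p = 0.0462). Atp5a1, the alpha subunit that alternates with it, was at 236 and 250 FPKM in CTRL against 266 and 264 in KO (log2 change of 0.13, adjusted p = 0.185). The gamma, delta and epsilon subunits (Atp5c1, Atp5d and Atp5e) did not pass either and had fold changes of 0.14, 0.14 and 0.15. Of the subunits of the Fo part and stalk that did not pass, Atp5j had the highest fold change (99.5 and 104 FPKM in CTRL, 117 and 123 FPKM in KO, 0.24, adjusted p = 0.0615). Atp5j2 and Atp5k overlapped between genotypes, with fold changes of 0.06 and 0.07, and Atp5mpl, the lowest of the complex, had -0.10.

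Subunit c, whose ring turns as protons pass, is encoded by 3 genes that give the same mature protein. Of these 2 passed, and the difference between the 3 genes was not tested. Atp5g1 (chr11:96068852-96075670) was at 64.6 and 68.0 FPKM in CTRL against 83.5 and 81.6 in KO (log2 change of 0.31, standard error 0.056, adjusted p = 0.0406). Atp5g3 (chr2:73908447-73911326) was at 143 and 144 FPKM in CTRL against 183 and 181 in KO (log2 change of 0.34, standard error 0.050, adjusted p = 0.0351). Atp5g2, the most abundant of the 3, was at 198 and 207 FPKM in CTRL against 196 and 203 in KO, so its genotypes overlapped (log2 change of -0.02, 95% interval -0.16 to 0.13, and 0.01 under median-ratio scaling). Atp5g2 made up 48.7% and 49.3% of the summed level of the 3 genes in CTRL and 42.4% and 43.7% in KO, and Atp5g3 went from 35.4% and 34.4% to 39.6% and 38.8%. Of the Atp5g2 sequence, 34.7% of 100-base stretches occur elsewhere in the annotated transcripts, so its level is less certain than those of the other two.

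**Figure D3:**
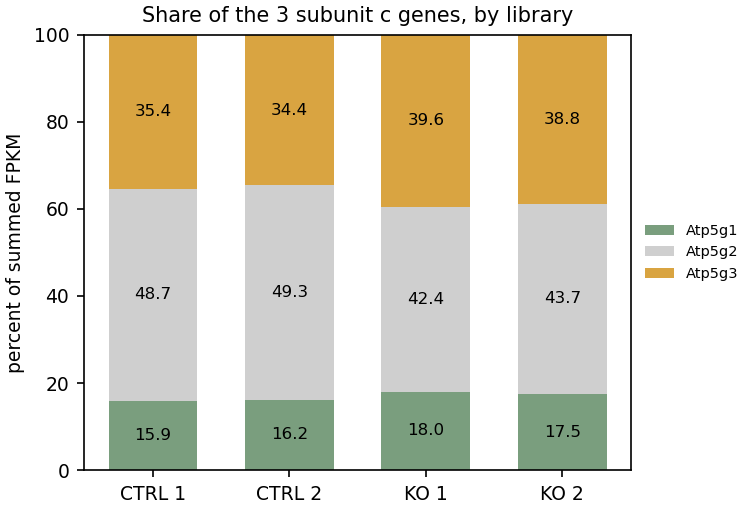
Share of Atp5g1, Atp5g2 and Atp5g3 in their summed FPKM, as a percentage, in each library. Atp5g2 held 48.7% and 49.3% in CTRL and 42.4% and 43.7% in KO, and both other genes held more in KO.

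The partner subunits encoded by mtDNA lay mostly below 0. None of the 13 passed the test by limma, with 0 higher and 6 lower at unadjusted p under 0.05. At that cut 1855 of all 11399 genes tested were higher and 2099 lower. The fold changes of 12 of the 13 were below 0, against 6128 of all 11399 genes tested, and their median was -0.268. KO libraries lay wholly below CTRL libraries for 9 (69.2%, against 35.5% of all genes tested) and wholly above for none (against 29.0%). The summed level of the 13 was 30304 and 27520 FPKM in CTRL against 25458 and 24318 in KO, a mean 13.9% lower. COX1, the catalytic subunit of complex IV, was at 11638 and 10018 FPKM in CTRL against 9547 and 9119 in KO (log2 change of -0.21, adjusted p = 0.230). CYTB of complex III (-0.27, adjusted p = 0.0951) and ND5 of complex I (-0.27, adjusted p = 0.0813) lay on the same side. ND3 had the lowest fold change (-0.95, adjusted p = 0.0622, and 0.0486 over genes with a mean FPKM above 5 in either genotype), and ATP8 was at 1.64 to 2.55 FPKM with overlapping genotypes (0.03). RNA was selected by oligo(dT), and ND3, ND4L, COX2, COX3 and ATP6 share nearly all of their sequence with nuclear pseudogenes, so levels between these genes cannot be compared.

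**Figure D4:**
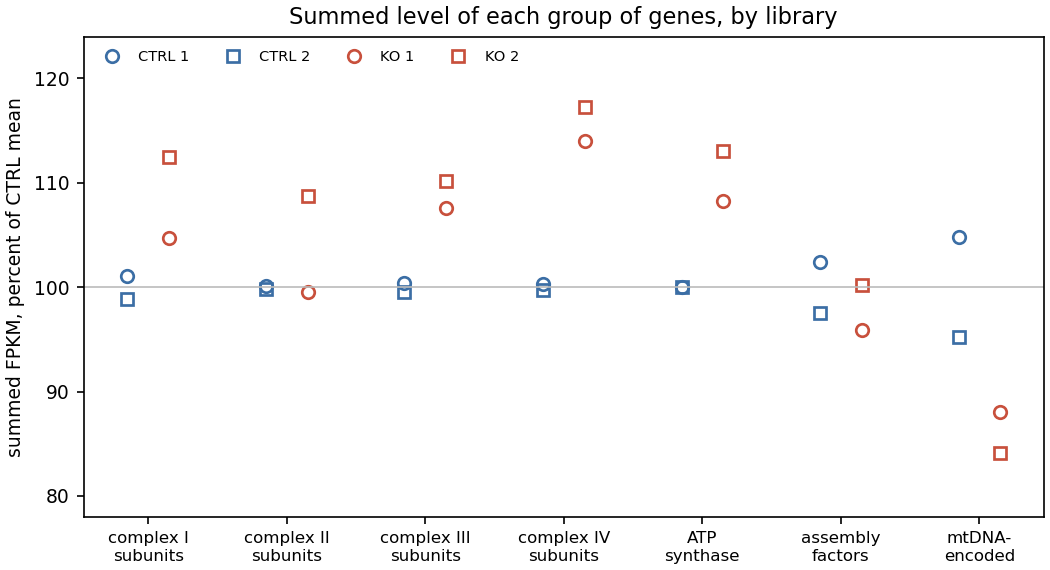
Summed FPKM of each group of genes in each library, as a percentage of the mean of the 2 CTRL libraries (the axis does not start at 0). Complex IV subunits stood at 114% and 117% in KO, assembly factors at 95.9% and 100%, and mtDNA-encoded subunits at 88.1% and 84.1%. Assembly factors summed to 317 to 338 FPKM per library, of which Cox20, whose level is uncertain, gave 103 to 125 FPKM.

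Genes that serve the chain without belonging to it were looked at by lists. Of 36 further assembly factors tested, none was higher (3 at unadjusted p under 0.05, limma), against 5.10% of all genes tested. Lower was 1 (2.78%, against 4.65% of all genes tested), and the median was -0.049. The 1 was Uqcc2, which acts on the making of cytochrome b, at 26.9 and 28.8 FPKM in CTRL against 22.2 and 21.0 in KO (log2 change of -0.35, adjusted p = 0.0433), a call lost with limma-voom on recovered counts (adjusted p = 0.0776), with the length trend removed (0.0529), without a variance trend (0.0616) and without a filter (0.0935). The fold changes in that list ran from -0.46 for Sdhaf3 to 0.41 for Cmc2. Of 19 genes of ubiquinone synthesis and electron entry, 1 was higher, which is 5.26% against 5.10% of all genes tested, and none was lower (3 at unadjusted p under 0.05, limma), with a median of 0.005. Coq10b, which is needed for the function of ubiquinone, rose from 12.3 and 11.9 FPKM to 19.6 and 16.5 FPKM (log2 change of 0.54, adjusted p = 0.0406, and 0.0536 without a variance trend), and Coq3, an enzyme of ubiquinone synthesis, was at 2.61 and 2.78 FPKM in CTRL against 1.24 and 1.81 in KO (log2 change of -0.56, adjusted p = 0.0722).

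Atpif1, the inhibitor of ATP synthase, was at 68.4 and 61.1 FPKM in CTRL against 77.5 and 83.8 in KO (log2 change of 0.31, adjusted p = 0.0664). None of the 3 carriers of ATP, ADP and phosphate passed (1 higher and 0 lower at unadjusted p under 0.05, limma), and the highest was Slc25a5, an ADP and ATP carrier (log2 change of 0.25, adjusted p = 0.0515). Slc25a3, the phosphate carrier, had a fold change of 0.07 and turned to -0.05 under quantile normalization. Of 18 genes of the TCA cycle and pyruvate dehydrogenase none passed (1 higher and 3 lower at unadjusted p under 0.05, limma), with a median of -0.010. They ran from Idh3b (-0.24) to Idh3a (0.25), which encode subunits of the same isocitrate dehydrogenase.

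Among regulators of nuclear and mitochondrial transcription for these complexes, 11 of 15 tested lay below 0 (median -0.089). Of all 11399 genes tested, 6128 lay below 0 (median -0.022). Of the 15, none was higher (0 at unadjusted p under 0.05, limma) and 4 were lower, which is 26.7% against 4.65% of all genes tested. Tefm, the elongation factor of mitochondrial transcription, was at 3.72 and 3.36 FPKM in CTRL against 2.02 and 2.17 in KO (log2 change of -0.55, adjusted p = 0.0430). Twnk, the helicase of mtDNA replication, went from 6.29 and 6.51 FPKM to 4.66 and 4.61 FPKM (-0.39, adjusted p = 0.0473). Pprc1, a coactivator of the PGC-1 family, went from 14.4 and 14.2 FPKM to 10.6 and 11.2 FPKM (-0.36, adjusted p = 0.0424), and Gabpb2, a partner of the ETS factor GABPA, from 27.4 and 28.0 FPKM to 21.2 and 22.0 FPKM (-0.35, adjusted p = 0.0394). Each of these 4 calls was lost under some alternatives. Under quantile normalization adjusted p was 0.0527 for Tefm, 0.0735 for Twnk and 0.0513 for Pprc1, and without a filter it was 0.0861 to 0.120 for the 4. With the length trend removed Gabpb2 moved to -0.20 (adjusted p = 0.0883) and Pprc1 to -0.29 (adjusted p = 0.0620), and over genes with a mean FPKM above 5 in either genotype Twnk had an adjusted p of 0.0532. Esrra, a nuclear receptor known to act on respiratory genes, had the highest fold change (0.18, adjusted p = 0.192), and Ppargc1a was listed at 0.0188 to 0.0523 FPKM and not tested.

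Promoters of the respiratory chain and ATP synthase genes were searched for 3 motifs of known regulators on both strands. The windows, from 250 bases before to 50 after the start in RefSeq (GRCm38.p6), were found for 84 of the 105 genes. The letters CCGGAAG (ETS factors such as GABPA) occurred in 24 of them (28.6%), in 22.0% of the 8883 genes tested with a window and in 9.93% of all 27025 windows by gene. GCATGCGC (NRF1) occurred in 12 (14.3%), against 6.35% and 3.05%, and AAGATGGCG (YY1) in 9 (10.7%), against 3.90% and 1.64%. Of the 9 genes higher in KO that had a window, 3 held the ETS letters, 1 the NRF1 letters and 0 the YY1 letters. A match is a run of letters and not a bound site. The stretches below hold the NRF1 letters, in capitals, before the start of a gene that rose and of one that fell, on the strand of the gene in GRCm38, Cox6a1 at chr5:115349086-115349143 (minus strand) and Ndufaf4 at chr4:24897947-24898004 (plus strand).
Cox6a1: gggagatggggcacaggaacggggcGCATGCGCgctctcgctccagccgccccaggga
Ndufaf4: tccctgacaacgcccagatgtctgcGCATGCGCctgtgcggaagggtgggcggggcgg

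The same NRF1 letters stood before Cox6a1, at 1.29 times its CTRL level in KO, and before Ndufaf4, at 0.617 times. Atp5g2, the subunit c gene whose genotypes overlapped, held them too, and Atp5g1 and Atp5g3 held none of the 3 motifs in their windows. Ndufb5, the other gene called lower, held none of the 3 either. Whether the motifs go with the fold changes was not tested.

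All 10 genes called higher stayed above 0 and both called lower stayed below 0 under each of the 15 alternatives tried. Many of these alternatives could not change the direction. Another filter, no variance trend, the robust fit and the replicate block leave the fold change of a gene as it is. With 1 library left out or with the other pseudocount, no sign can turn where KO libraries lie wholly on 1 side of CTRL libraries, as in all 12. The direction was free to turn under the scalings, quantile normalization and the length trend. Limma-voom scaled recovered counts by the library totals already in the FPKM, so it left little room for a turn. Without a filter on low values none of the 12 passed, with adjusted p from 0.0860 to 0.106 and 29 higher and 6 lower at unadjusted p under 0.05. Under quantile normalization, which forces the libraries to 1 distribution, Cox6a1 and Uqcr10 stayed among the higher genes, Cox7a2l and Sdha joined the lower, and the median over the 95 genes was 0.045. With each library's trend with gene length removed, 6 of the 10 remained higher. With any 1 of the 4 libraries left out none of the 12 passed, with adjusted p from 0.104 to 0.168 and medians over the 95 genes of 0.107 to 0.139.

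**Figure D5:**
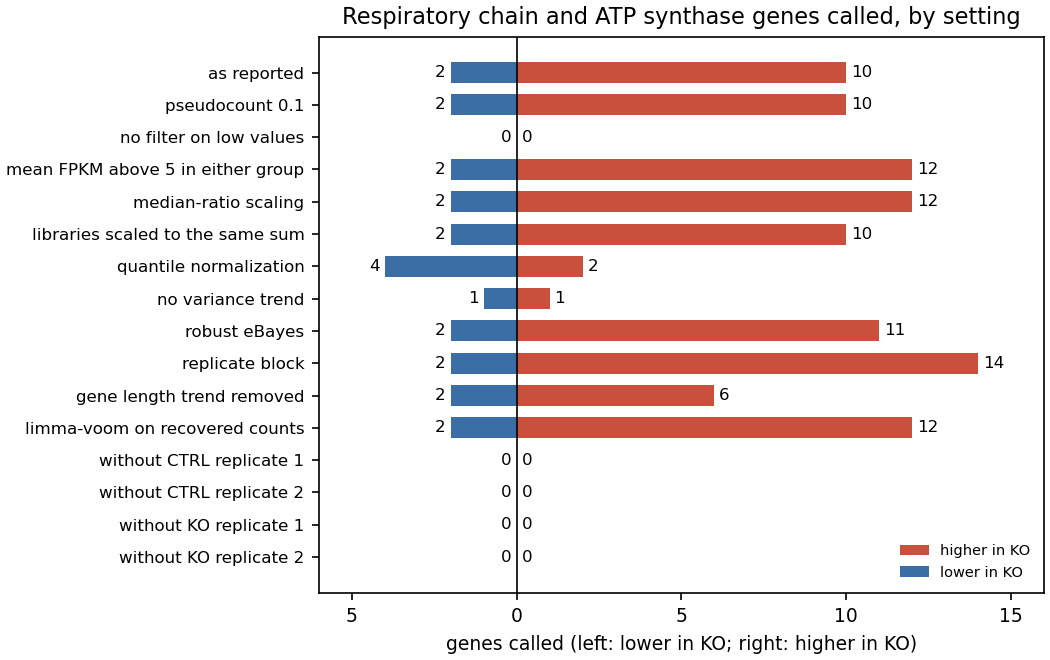
Number of respiratory chain and ATP synthase genes called higher (right) and lower (left) in KO at adjusted p under 0.05 as reported and under each alternative. The calls as reported were 10 and 2, and ranged from 0 and 0 to 14 higher and 4 lower.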

How the data were processed

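RNA selected with oligo(dT) from 4 libraries of sorted splenic Treg cells was sequenced as 150 bp read pairs. Per the labels and methods, the authors mapped reads to mm10 (GRCm38) with HISAT2 2.2.1 and counted them per gene with featureCounts 2.0.1. The deposited values were FPKM made by the authors, and the gene lengths, use of strand and handling of multi-mapped reads were not given in the sources used here. Control columns named WT were read as CTRL by number. The edgeR test of the study was not used, since the table holds no counts.

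KO was compared with CTRL with limma 3.58.1 (R 4.3.3, lmFit and eBayes with trend) on log2(FPKM + 1), two-sided, over 11399 genes at 1 FPKM or more in 2 or more libraries. Adjusted p is Benjamini-Hochberg over these genes, with a threshold of 0.05. With 2 libraries per genotype an exact permutation test of 1 gene cannot go below p = 0.333, so the test rests on pooled variance, and p-values measure the spread between libraries from pooled mice. FPKM steps gave whole fragment counts for 11398 of the genes tested (99.991%, tolerance 0.002 counts), with totals of 32803683 to 35460567 per library. These served for a limma-voom alternative and for gene length. Overlap and shared 100-base stretches were taken from GENCODE vM21. The recovered length of a gene was the smallest that gave whole counts in every library, and it was not compared with the annotation. It can therefore be too short, and the counts too low, as for ND2 of mtDNA (519 bases, against 1038 bases of annotated exons).

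The genes, lists, named genes and alternatives were chosen with earlier results of these data known. Named were Setd2, the genes past the threshold, in each complex the 2 highest and 2 lowest fold changes and the 2 most abundant genes, isoform sets, the Sdh genes and the called and extreme genes of each list. Some single-gene values are not reported here. A few further genes of the complexes and some markers were named for contrast after their values were seen. Ratios between 2 genes restate the fold changes of those genes and are no separate test. The procedure was run on simulated data with changes larger than those of the genes reported here. It therefore does not show how changes as small as these are called. Python 3.11.15 (numpy 2.4.6, pandas 2.3.3, matplotlib 3.10.9) was used otherwise.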

Additional observations from a re-analysis of the deposited data

How the results depend on the processing

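With 2 libraries per genotype, the median standard error on the log2 scale was 0.0866 over all genes tested and 0.0713 over the 95. It was 0.0608 for those of the 95 at 50 FPKM or more and 0.0961 for those under it. Of all genes tested, 581 were higher and 530 lower. Without a filter on low values these counts were 0 and 0, without a variance trend 315 were higher, and with limma-voom on recovered counts 913 were higher and 1024 lower. Median-ratio scaling moved the median of all genes from -0.022 to 0.000 and the split to 712 higher and 470 lower. Of the respiratory chain and ATP synthase genes, 10 were higher and 2 lower, against 0 and 0 without a filter, 2 and 4 under quantile normalization, 1 and 1 without a variance trend, and 6 higher with the gene length trend removed. The medians of the complexes stayed above 0 under all alternatives. Complex II was at 0.028 without a filter and 0.114 under median-ratio scaling, where complex IV was at 0.141. Under quantile normalization the 95 genes were at 0.045, complex II at 0.045, III at 0.118, IV at 0.034 and V at 0.026. With the length trend removed, complex I was at 0.074, II at 0.046 and III at 0.132. Cox6a2 turned to -0.004 with a pseudocount of 0.1, -0.018 under quantile normalization, -0.028 with the length trend removed and -0.005 with limma-voom. Atp5g2 turned to 0.009 under median-ratio scaling, and Atp5j2 to -0.069, Cox4i1 to -0.044, Ndufa3 to -0.001 and Slc25a3 to -0.047 under quantile normalization. The causes were not tested.

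The replicate numbers tie the libraries to no litter or day. With the number as a replicate block, 968 genes were higher and 805 lower, and 14 and 2 of the 95. ND3 then passed as lower (adjusted p = 0.0351). Deviations of same-numbered libraries had a Pearson correlation across genes of 0.342 (Spearman 0.055).

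With 1 library left out, the lone library was taken to vary like the other genotype, and 0 to 1 genes were higher and 0 to 1 lower, with 0 of the 95. Medians were 0.107 to 0.139 over the 95, and 0.045 to 0.138, 0.072 to 0.108, 0.147 to 0.198, 0.117 to 0.144 and 0.113 to 0.202 for complexes I to V. Fold changes that changed sign were ATP8 (-0.181 to 0.243), Atp5g2 (-0.047 to 0.016), Cox6a2 (-0.260 to 0.284), Cox7a1 (-0.290 to 0.154), Ndufa3 (-0.003 to 0.202), Atp5j2 (-0.020 to 0.140) and Atp5k (-0.099 to 0.238).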
